A study of Mus musculus with 6 samples.

Results

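The genes described here are 10 genes of prostaglandin and leukotriene synthesis, taken by symbol from the 21780 genes of the count table: Pla2g4a, Ptgs1, Ptgs2, Ptges, Hpgds, Alox5, Alox5ap, Lta4h, Ltc4s and Pla2g7. Each symbol matched 1 Ensembl gene of GENCODE vM21, and all 10 were among the 14429 genes tested. They were measured in live CD45+CD11b+ cells, the myeloid gate, sorted from the digested pancreas of wild-type C57BL/6 mice that were 6 to 8 weeks old. The mice had received PBS (3 libraries) or 1 mg of WGP (3 libraries) by intraperitoneal injection 7 days earlier. WGP are whole glucan particles, hollow yeast shells rich in β-glucan that phagocytes take up through the receptor Dectin-1. The comparison asks how the injected particle altered the transcripts of the pancreatic myeloid compartment. The labels give triplicate samples, and the study's figure legend describes a sample as an independent animal from a single experiment, so p-values measure the spread between animals within that experiment.

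Eicosanoids are short-lived lipid messengers made from arachidonic acid. Cytosolic phospholipase A2 frees arachidonate from membranes, and the cyclooxygenases Ptgs1 and Ptgs2 turn it into prostaglandin H2, from which terminal synthases make prostaglandin E2 (Ptges) or prostaglandin D2 (Hpgds). In a second branch, 5-lipoxygenase (Alox5), helped by the 5-lipoxygenase activating protein (Alox5ap), makes leukotriene A4, which becomes leukotriene B4 through Lta4h or leukotriene C4 through Ltc4s. Macrophages and monocytes express both branches, and Ptgs2 and Ptges are the well-known inducible members, whereas Ptgs1 is usually called constitutive. Pla2g7 is the odd member of the list: it encodes a secreted lipase that hydrolyses platelet-activating factor and oxidised phospholipids, and it makes no eicosanoid.

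The 5 promoters that follow are shown because their genes form the pairs that moved in opposite directions within 1 step of the pathway (Ptgs2 and Ptgs1, Ptges and Hpgds) or the branch enzyme that fell (Ltc4s). They are RefSeq windows of GRCm38.p6 reaching from 250 bases before to 30 bases from the transcript start, printed 5′ to 3′ on the gene's strand, with capitals at matches to the motifs searched on both strands. The windows lie at chr1:150099781-150100060 (plus strand, Ptgs2), chr2:36230176-36230455 (plus strand, Ptgs1), chr2:30903268-30903547 (minus strand, Ptges), chr6:65144701-65144980 (minus strand, Hpgds) and chr11:50238503-50238782 (minus strand, Ltc4s).
Ptgs2: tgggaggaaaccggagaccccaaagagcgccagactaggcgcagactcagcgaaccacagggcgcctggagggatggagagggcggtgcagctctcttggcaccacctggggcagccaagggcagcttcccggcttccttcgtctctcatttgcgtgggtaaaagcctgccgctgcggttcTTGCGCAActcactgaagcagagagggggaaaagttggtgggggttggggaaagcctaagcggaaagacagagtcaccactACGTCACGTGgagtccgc
Ptgs1: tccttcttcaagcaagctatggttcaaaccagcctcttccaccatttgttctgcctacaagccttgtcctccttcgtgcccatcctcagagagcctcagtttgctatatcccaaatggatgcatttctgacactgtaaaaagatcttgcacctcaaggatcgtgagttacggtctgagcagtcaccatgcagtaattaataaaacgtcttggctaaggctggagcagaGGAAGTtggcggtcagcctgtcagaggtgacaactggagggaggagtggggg
Ptges: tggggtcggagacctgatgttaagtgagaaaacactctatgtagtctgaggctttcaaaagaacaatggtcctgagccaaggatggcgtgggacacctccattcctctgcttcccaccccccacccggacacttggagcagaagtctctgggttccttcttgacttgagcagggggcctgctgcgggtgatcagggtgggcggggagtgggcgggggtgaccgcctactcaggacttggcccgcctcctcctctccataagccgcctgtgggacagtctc
Hpgds: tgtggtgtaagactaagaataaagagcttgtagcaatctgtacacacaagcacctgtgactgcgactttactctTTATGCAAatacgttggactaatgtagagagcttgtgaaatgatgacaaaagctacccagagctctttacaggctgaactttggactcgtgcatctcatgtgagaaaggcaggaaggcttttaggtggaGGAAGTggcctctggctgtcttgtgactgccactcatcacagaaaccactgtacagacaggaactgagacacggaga
Ltc4s: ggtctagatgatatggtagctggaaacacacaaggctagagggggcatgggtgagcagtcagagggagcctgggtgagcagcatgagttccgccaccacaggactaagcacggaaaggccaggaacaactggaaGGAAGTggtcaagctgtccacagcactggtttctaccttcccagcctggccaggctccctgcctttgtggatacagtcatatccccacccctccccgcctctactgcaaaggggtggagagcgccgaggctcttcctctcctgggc

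In the Ptgs2 window the C/EBP motif TTGCNNAA began 69 bases before the start, and the cAMP response element core ACGTCA overlapped the E-box CACGTG, beginning 12 and 16 bases after it. These motifs were present in 10.4%, 7.26% and 6.79% of 32851 RefSeq windows of the same length. The Ptgs1, Hpgds and Ltc4s windows each held GGAAGT, the core bound by PU.1 and other ETS factors, beginning 22, 47 and 116 bases before the start, and 22.3% of all windows held it. Hpgds also held TTGCNNAA as its reverse complement, 176 bases before the start. No motif was found in the Ptges window, nor in those of Pla2g4a, Pla2g7, Alox5 and Lta4h, and Alox5ap had no entry. Pla2g4a had 2 windows, of which only the first was searched. The remaining motifs searched, the TATA box TATAAA, the AP-1 site TGANTCA, an NF-κB site and an IRF site, were in none of the windows searched for these genes and in 13.1%, 7.46%, 5.20% and 3.28% of all windows. The RefSeq starts of Ptges, Hpgds and Ltc4s lie inside the longer gene spans of GENCODE given with each gene. The motifs were chosen with these sequences in view, and a match is only a match of letters.

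Cells from WGP-treated mice held more Ptgs2, Ptges, Pla2g4a and Pla2g7 transcript and less Ptgs1, Alox5, Ltc4s and Hpgds transcript than cells from PBS-treated mice, whereas Alox5ap and Lta4h did not pass the test. The changes that passed ran from 2.43-fold (Pla2g4a) to 18.3-fold (Ptges) upward and from 2.80-fold (Ptgs1) to 5.30-fold (Hpgds) downward. A call required that edgeR's quasi-likelihood test gave an adjusted p of 0.05 or less together with a log2 fold change of 1 or more in size. By this rule 8 of the 10 genes were called, against 9.49% of all genes tested. Of these, 4 were higher, against 4.53%, and 4 were lower, against 4.96%. By the adjusted p alone the counts were also 4 higher and 4 lower, against 7.54% and 6.81% of all genes tested. The WGP and PBS libraries did not overlap for 8 of the 10 genes, against 32.0% of all genes tested. The median absolute log2 fold change was 2.14 over the 10 genes and 0.54 over all genes tested. The signed medians were close to each other, at −0.03 and −0.05, with as many rises as falls. In RNA from a sorted bulk population, fewer cells of a type and less RNA per cell cannot be told apart.

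Several facts about the libraries bear on all values below. Total counts ran from 35334645 to 43341834, and levels are given as CPM, the counts of a gene per 1000000 counts of its library after TMM scaling. Counts of the Y-linked genes Ddx3y, Uty, Kdm5d and Eif2s3y reached 8972 and 10063 in PBS replicates 2 and 3, were 0 in PBS replicate 1, and did not exceed 1 in any WGP library. Male and female mice were used in the study, and PBS replicate 1 is thus the only PBS library that resembles the WGP libraries in this respect. A fit with a factor for whether a library held Y-linked counts rests the contrast on that library, which also stood apart by its lymphocyte markers, at 1409 CPM summed over the list against 203 to 359 CPM in the other PBS libraries. All 8 calls held in that fit.

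**Figure D1:**
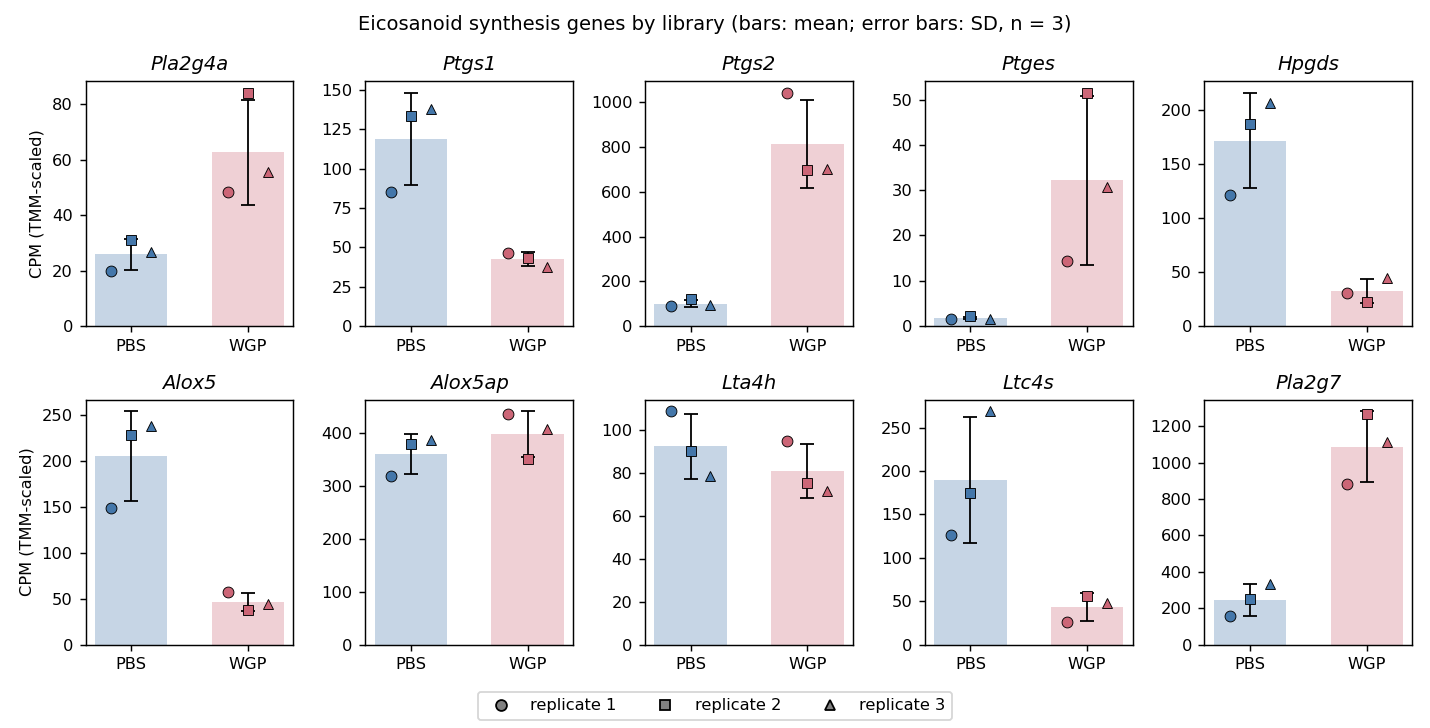
Level of each of the 10 genes in CPM (TMM-scaled), with 1 point per library, bars for the group mean and error bars for the SD (n = 3). The groups are separate in 8 panels and overlap for Alox5ap and Lta4h.

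At the head of the pathway, Pla2g4a rose. Pla2g4a (ENSMUSG00000056220, chr1:149829618-149961290, minus strand, mm10) encodes cytosolic phospholipase A2α, which supplies the arachidonate for both branches. It measured 19.9, 31.0 and 26.6 CPM in PBS replicates 1 to 3 and 48.2, 84.2 and 55.8 CPM in the WGP libraries. Every WGP library lay above every PBS library, and WGP replicate 2 was the highest. The log2 fold change was 1.28 (SE 0.26, 95% interval 0.71 to 1.85, edgeR adjusted p = 0.00714), the smallest called rise among the 10 genes. Pla2g4a lies 138.7 kb from Ptgs2 on chromosome 1, and both rose.

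Among the cyclooxygenases the inducible form rose and the constitutive form fell. Ptgs2 (ENSMUSG00000032487, chr1:150100031-150108227, plus strand) measured 87.9, 119.8 and 94.3 CPM in the PBS libraries and 1044, 699.5 and 700.4 CPM in the WGP libraries. WGP replicate 1 was the highest, and the lowest WGP library was far above the highest PBS library. Mean levels were 100.7 ± 16.9 and 814.5 ± 198 CPM (SD, n = 3), an 8.09-fold rise with a log2 fold change of 3.02 (SE 0.21, 95% interval 2.54 to 3.49, edgeR adjusted p = 1.86e-05). Ptgs1 (ENSMUSG00000047250, chr2:36230426-36252272, plus strand) measured 85.4, 133.5 and 138.1 CPM in PBS and 46.1, 43.5 and 37.8 CPM in WGP libraries. The WGP libraries were alike and all lay below PBS replicate 1, the lowest PBS library. Mean levels were 119 ± 29.2 and 42.5 ± 4.28 CPM (SD, n = 3), and the log2 fold change was −1.49 (SE 0.20, 95% interval −1.94 to −1.03, edgeR adjusted p = 0.000799). With the Y-linked factor it was −1.01, just past the fold threshold.

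Because a ratio of 2 genes within a library does not depend on the scaling between libraries, the cyclooxygenases were also compared as counts per kilobase of exon. Exon length here is that of all annotated exons of a gene merged, so the shares within a pair depend on it. The difference in log2 ratio between the groups does not. Ptgs2 made up 46.6%, 43.2% and 36.7% of the Ptgs1 and Ptgs2 counts per kilobase in the PBS libraries and 95.05%, 93.2% and 94.0% in the WGP libraries. The pair was thus close to balance in every PBS library and nearly all Ptgs2 in every WGP library. The mean log2 ratio was 4.46 higher in WGP libraries, a 22.0-fold shift (exact two-sided permutation test, p = 0.1, adjusted over 3 ratios 0.1, the smallest p that 3 against 3 libraries allow). None of the 3 ratios tested could therefore pass the threshold.

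The terminal prostaglandin synthases changed in opposite directions as well. Ptges (ENSMUSG00000050737, chr2:30889471-30929863, minus strand), the microsomal prostaglandin E synthase that works with Ptgs2, was the lowest of the 10 genes in PBS libraries, at 1.56, 2.10 and 1.59 CPM. It measured 14.3, 51.5 and 30.6 CPM in the WGP libraries. The WGP libraries thus differed widely among themselves, with replicate 2 the highest, but all lay above the PBS libraries. The 18.3-fold rise (log2 fold change 4.20, SE 0.48, 95% interval 3.14 to 5.26, edgeR adjusted p = 0.000266) was the largest of the 10 genes. The PBS level rests on 60, 82 and 65 counts, which were 1.40, 2.73 and 2.50 times the most frequent low count of each library, so that few molecules may lie behind it. With all counts divided by that low count the log2 fold change was 4.24. In limma-voom the log2 fold change was 4.05 with an adjusted p of 0.0525, and Ptges was not called.

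Hpgds (ENSMUSG00000029919, chr6:65117293-65144908, minus strand), the hematopoietic prostaglandin D synthase, measured 121.9, 187.4 and 206.6 CPM in PBS and 30.2, 22.6 and 44.6 CPM in WGP libraries. The highest WGP library stayed well below the lowest PBS library. Mean levels were 172 ± 44.4 and 32.5 ± 11.2 CPM (SD, n = 3), a 5.30-fold fall (log2 fold change −2.41, SE 0.28, 95% interval −3.02 to −1.79, edgeR adjusted p = 0.000276). Of the Ptges and Hpgds counts per kilobase, Ptges made up 2.05%, 1.80% and 1.24% in the PBS libraries and 43.6%, 78.9% and 52.9% in the WGP libraries. A library from PBS-treated mice therefore held almost only the prostaglandin D synthase of the pair, and every library from WGP-treated mice held both. Ptges lay above Hpgds per kilobase in WGP replicates 2 and 3. In counts, it did so in WGP replicate 2 alone (526, 2136 and 1254 for Ptges, 1112, 935 and 1827 for Hpgds). The mean log2 ratio was 6.45 higher in WGP libraries (exact two-sided permutation test, p = 0.1, adjusted 0.1), 5.78 without WGP replicate 2 and 6.92 without WGP replicate 1.

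**Figure D2:**
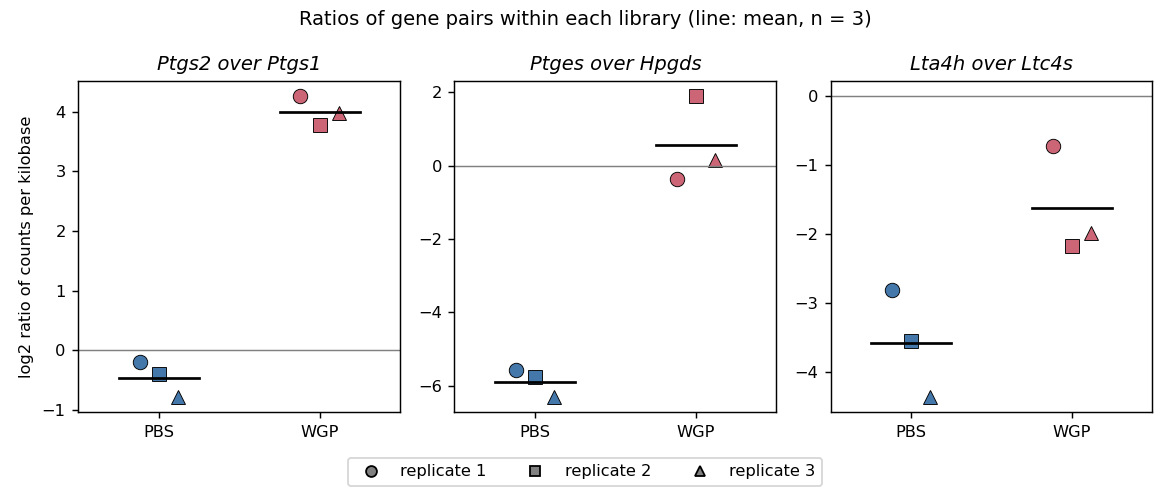
Log2 ratio of counts per kilobase of exon between 2 genes within each library, with 1 point per library and a line at the group mean (n = 3); 0 marks equal levels. All WGP libraries lie above all PBS libraries for each of the 3 pairs, and the Ptges over Hpgds ratio spreads most among the WGP libraries.

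In the leukotriene branch Alox5 and Ltc4s fell, whereas the values of Alox5ap and Lta4h overlapped between the groups. Alox5 (ENSMUSG00000025701, chr6:116410077-116461178, minus strand), the 5-lipoxygenase, measured 149.1, 228.5 and 238.6 CPM in PBS and 57.1, 37.3 and 44.4 CPM in WGP libraries. The groups were far apart, and again PBS replicate 1 was the lowest PBS library. The log2 fold change was −2.15 (SE 0.23, 95% interval −2.65 to −1.65, edgeR adjusted p = 0.000160), a 4.44-fold fall, and −1.69 with the Y-linked factor. Alox5ap (ENSMUSG00000060063, chr5:149264767-149288153, plus strand), the membrane protein that presents arachidonate to Alox5, measured 318.1, 379.0 and 387.4 CPM in PBS and 436.3, 351.5 and 407.8 CPM in WGP libraries. The groups overlapped, and the log2 fold change of 0.14 had a 95% interval of −0.20 to 0.48 (edgeR adjusted p = 0.608), narrower than the fold threshold on either side.

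Ltc4s (ENSMUSG00000020377, chr11:50236461-50238616, minus strand), which conjugates leukotriene A4 with glutathione, measured 126.3, 175.0 and 269.0 CPM in PBS and 26.0, 56.4 and 47.3 CPM in WGP libraries. The groups did not overlap, although the PBS libraries spread widely, with replicate 3 the highest. The log2 fold change was −2.14 (SE 0.33, 95% interval −2.86 to −1.41, edgeR adjusted p = 0.00155), a 4.40-fold fall. With the Y-linked factor it was −1.55 (edgeR adjusted p = 0.0210). Lta4h (ENSMUSG00000015889, chr10:93453411-93484875, plus strand), the hydrolase that makes leukotriene B4 and is widely expressed, measured 108.8, 90.1 and 78.8 CPM in PBS and 95.1, 75.5 and 71.7 CPM in WGP libraries. The groups overlapped, with a log2 fold change of −0.20 and a 95% interval of −0.59 to 0.20 (edgeR adjusted p = 0.520). Of the Lta4h and Ltc4s counts per kilobase, Lta4h made up 12.5%, 7.88% and 4.64% in PBS and 37.8%, 18.2% and 20.1% in WGP libraries. The mean log2 ratio of Lta4h over Ltc4s was 1.95 higher in WGP libraries (exact two-sided permutation test, p = 0.1, adjusted 0.1). Per kilobase, Ltc4s stayed above Lta4h in every library, an order that depends on the exon lengths of 1.014 and 6.102 kb. In counts, Lta4h was above Ltc4s in every WGP library (3503, 3130 and 2936 against 957, 2337 and 1937).

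Pla2g7 (ENSMUSG00000023913, chr17:43568098-43612201, plus strand), the platelet-activating factor acetylhydrolase, measured 155.2, 248.2 and 332.1 CPM in PBS and 881.5, 1269 and 1116 CPM in WGP libraries. Every WGP library exceeded every PBS library, and in each group replicate 1 was the lowest. Mean levels were 245 ± 88.5 and 1089 ± 195 CPM (SD, n = 3), a 4.44-fold rise (log2 fold change 2.15, SE 0.27, 95% interval 1.56 to 2.74, edgeR adjusted p = 0.000416). With the Y-linked factor the log2 fold change was 2.81.

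**Figure D3:**
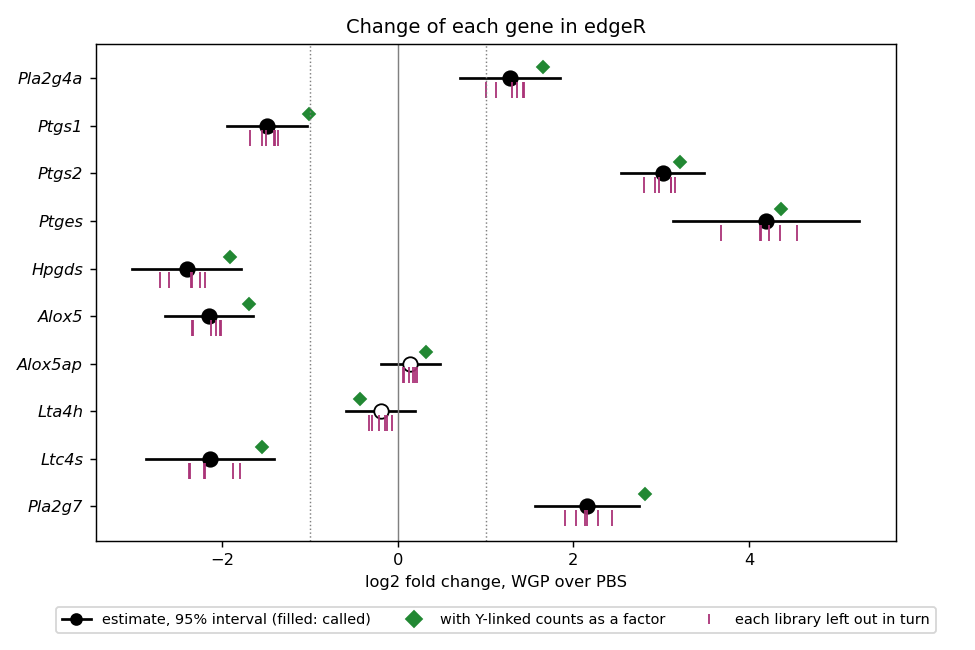
Log2 fold change of WGP over PBS for the 10 genes, with the edgeR estimate and its 95% interval (filled where called), the estimate with the Y-linked factor (diamonds) and the estimates with each library left out in turn (ticks); dotted lines mark the fold threshold. The diamonds and ticks stay on the side of 0 of the estimate for every gene.

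The order of the genes by level changed between the groups. Per kilobase of exon, Alox5ap led in PBS libraries at 255 ± 26.6 CPM per kb (SD, n = 3), followed by Ltc4s at 187 ± 71.6, Pla2g7 at 84.4 ± 30.5, Alox5 at 50.03 ± 11.9, Ptgs1 at 30.6 ± 7.52, Hpgds at 26.8 ± 6.91 and Ptgs2 at 22.0 ± 3.69 CPM per kb. Lta4h at 15.2 ± 2.48, Pla2g4a at 4.04 ± 0.87 and Ptges at 0.45 ± 0.08 CPM per kb closed the order. Alox5ap and Ltc4s differed by less than the SD of Ltc4s, and Ptgs1, Hpgds and Ptgs2 lay within about 1 SD of their neighbours. In WGP libraries Pla2g7 led at 375 ± 67.1 CPM per kb, followed by Alox5ap at 281 ± 30.4, Ptgs2 at 178 ± 43.3 and Ltc4s at 42.6 ± 15.4 CPM per kb. The remaining genes were at 13.2 (Lta4h), 11.3 (Alox5), 10.9 (Ptgs1), 9.82 (Pla2g4a), 8.18 (Ptges) and 5.05 (Hpgds) CPM per kb, with neighbours closer than their spread. As a share of the summed level per kilobase of the 10 genes, Ptgs2 went from 2.52% to 3.79% of the PBS libraries to 16.0% to 24.7% of the WGP libraries, and Ltc4s from 24.0% to 32.5% to 2.78% to 5.82%. These levels per kilobase describe abundance between genes and were not tested.

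The other genes of the pathway were 75 genes in 9 lists, of which 67 were tested. Of these, 17.9% were called, against 9.49% of all genes tested. They were 8 genes called higher, against 4.53% of all genes, and 4 called lower, against 4.96%, with a median log2 fold change of −0.12 against −0.05 over all genes tested, and 7 genes had no count in any library. The median was the same with the 9 genes that had no count in 1 of the groups set at their bound from a floor of 3 counts over that group. Among the 67 genes DESeq2 called 9 higher and 8 lower, and limma-voom 8 higher and 4 lower.

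Upstream of the cyclooxygenases, 13 of 17 other phospholipases A2 were tested, of which 1 was called higher and 2 lower. Pla2g2d, a secreted phospholipase A2 of tissue macrophages and dendritic cells, measured 45.0, 105.8 and 115.8 CPM in PBS and 1.76, 2.17 and 2.83 CPM in WGP libraries, a 39.3-fold fall (log2 fold change −5.30, SE 0.39, edgeR adjusted p = 2.20e-05). This was the largest change among the called genes of the pathway lists, and the log2 fold change was −4.31 with the Y-linked factor. Pla2g1b, the digestive phospholipase of pancreatic acinar cells, went from 71.4 ± 22.8 to 4.23 ± 2.43 CPM (log2 fold change −4.08, SE 0.49, edgeR adjusted p = 0.000366). All 7 acinar markers (Cpa1, Cel, Pnlip, Ctrb1, Prss2, Clps and Cela2a) were called lower beside it, from a summed 1213 to 4676 CPM in PBS to 323 to 538 CPM in WGP libraries, and their part in the fall of Pla2g1b was not tested. Pla2g16, an adipose-type phospholipase, went from 28.2 ± 0.78 to 74.0 ± 16.4 CPM (log2 fold change 1.39, SE 0.20, edgeR adjusted p = 0.00110). In arachidonate handling edgeR called 1 of 8 genes, whereas DESeq2 called 1 higher and 2 lower. The edgeR call was Lpcat3, which returns arachidonate to phospholipids, from 28.7 ± 8.61 to 58.9 ± 6.47 CPM (log2 fold change 1.04, SE 0.23, edgeR adjusted p = 0.0134). This value sat at the fold threshold and dropped under it when PBS replicate 1 (0.87), PBS replicate 3 (0.98) or WGP replicate 2 (0.94) was left out, and with library totals (0.94).

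None of the 8 other prostanoid synthases was called by edgeR, DESeq2 or limma-voom, and 1 had an unadjusted p under 0.05 in edgeR. Tbxas1, the thromboxane synthase and the most abundant of them, measured 111.8, 193.6 and 235.3 CPM in PBS and 279.7, 209.8 and 251.7 CPM in WGP libraries. The groups overlapped (log2 fold change 0.45, SE 0.25, edgeR adjusted p = 0.285), and in the fit with the Y-linked factor it was called higher (1.14, edgeR adjusted p = 0.00959). Among the 11 other lipoxygenases and leukotriene enzymes tested, 2 were called higher and 1 lower. Dpep2, a dipeptidase of myeloid cells that turns leukotriene D4 into leukotriene E4, went from 11.2 ± 1.70 to 33.6 ± 9.12 CPM (log2 fold change 1.59, SE 0.28, edgeR adjusted p = 0.00352). Ggt5, the γ-glutamyl transferase that turns leukotriene C4 into leukotriene D4, went from 29.8 ± 8.05 to 9.24 ± 4.33 CPM (log2 fold change −1.69, SE 0.40, edgeR adjusted p = 0.0180). In edgeR the call of Ggt5 was lost when PBS replicate 2 was left out (adjusted p = 0.0754), when PBS replicate 3 was left out (adjusted p = 0.0563) and with the Y-linked factor (adjusted p = 0.187). The enzymes that process leukotriene C4 in turn, Ggt5 and Dpep2, thus had calls in opposite directions. Alox15, the 12/15-lipoxygenase, measured 11.9, 17.2 and 10.1 CPM in PBS and 91.8, 21.4 and 29.2 CPM in WGP libraries (log2 fold change 1.86, SE 0.49, edgeR adjusted p = 0.0294). WGP replicate 1 was far above the others, without it the log2 fold change was 0.95 (edgeR adjusted p = 0.126), and the call was lost in 7 of 17 alternatives.

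Downstream of synthesis, 1 of 5 inactivating genes was called. Hpgd, the 15-hydroxyprostaglandin dehydrogenase that begins the breakdown of prostaglandin E2, measured 196.5, 314.9 and 278.8 CPM in PBS and 24.8, 9.24 and 7.55 CPM in WGP libraries. The groups were far apart, and the 19.0-fold fall (log2 fold change −4.25, SE 0.44, edgeR adjusted p = 0.000144) was of similar size to the rise of Ptges; without WGP replicate 1 the log2 fold change was −4.97. None of the 3 transporters was called by edgeR, DESeq2 or limma-voom, and 1 had an unadjusted p under 0.05 in edgeR. The most abundant, Abcc1, the export pump for leukotriene C4, stood at 179 ± 40.3 and 166 ± 23.0 CPM (log2 fold change −0.12, edgeR adjusted p = 0.768). By adjusted p alone, without the fold threshold, 9 of the 67 genes passed higher and 6 lower, against 14.4% of all genes tested.

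Among 7 prostanoid receptors tested, Ptger2 was called higher. Ptger2, the EP2 receptor for prostaglandin E2, measured 2.94, 4.44 and 6.55 CPM in PBS and 24.1, 13.3 and 17.2 CPM in WGP libraries (log2 fold change 1.97, SE 0.41, edgeR adjusted p = 0.00883). The groups did not overlap, and the call was lost without WGP replicate 1 (1.72, edgeR adjusted p = 0.0543). With the Y-linked factor the log2 fold change was 2.63. Of 5 leukotriene and lipoxin receptors tested, Fpr2, the formyl peptide receptor that also binds lipoxin A4, was called higher, from 20.9 ± 3.24 to 303 ± 35.1 CPM (log2 fold change 3.85, SE 0.18, edgeR adjusted p = 3.69e-06). None of the 4 receptors for leukotrienes was called by edgeR, DESeq2 or limma-voom, with 0 at an unadjusted p under 0.05 in edgeR, and 1, Cysltr1, was called higher with the Y-linked factor (1.18, edgeR adjusted p = 0.0157). Of 7 genes of platelet-activating factor, the lipid that Pla2g7 hydrolyses, 2 were called higher. Lpcat2, which makes platelet-activating factor in activated macrophages, went from 65.9 ± 16.5 to 246 ± 18.2 CPM (log2 fold change 1.90, SE 0.19, edgeR adjusted p = 0.000119). Ptafr, its receptor, went from 372 ± 139 to 755 ± 54.8 CPM (log2 fold change 1.02, SE 0.26, edgeR adjusted p = 0.0236). The Ptafr value sat at the fold threshold and moved to 0.74 without PBS replicate 1 and to 1.82 with the Y-linked factor. The call was also lost when PBS replicate 2 (edgeR adjusted p = 0.0531), WGP replicate 1 (0.0783) or WGP replicate 3 (0.0551) was left out, and fell below the fold threshold with upper-quartile scaling (log2 fold change 0.99) and library totals (0.93).

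**Figure D4:**
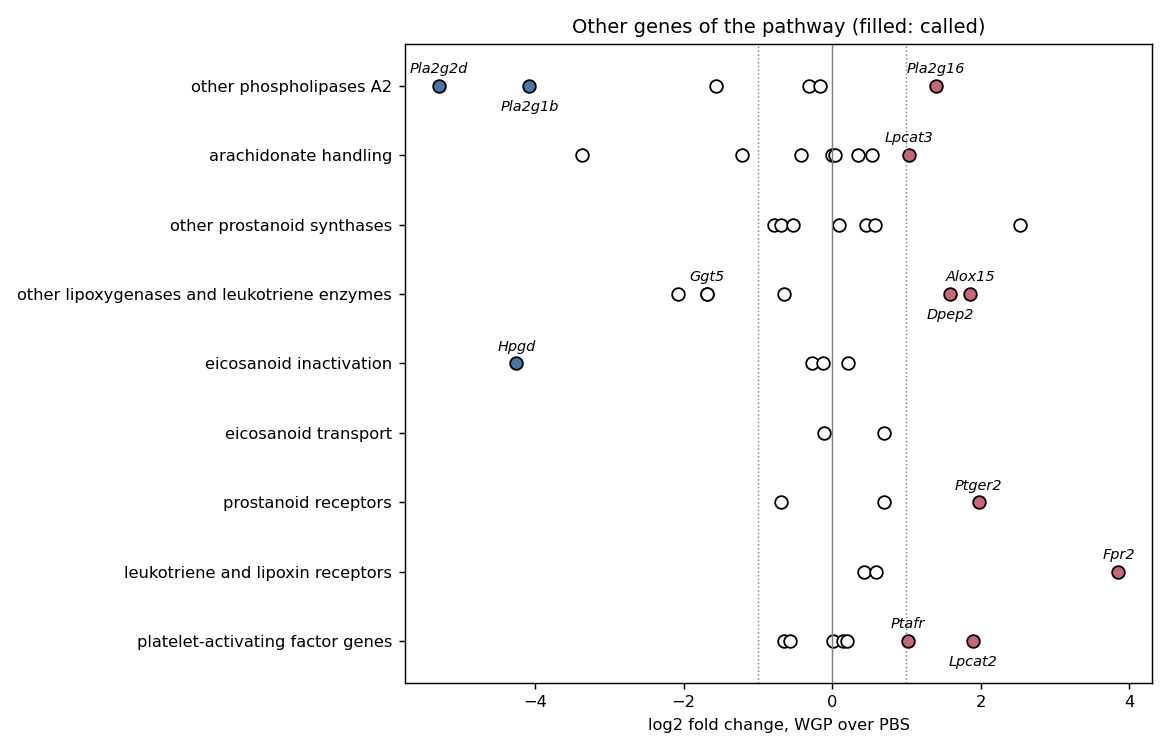
Log2 fold change of WGP over PBS for the 46 other pathway genes with a mean of at least 5 CPM in a group, in 9 lists, filled and named where called (red higher, blue lower); dotted lines mark the fold threshold. Calls are spread over 7 of the lists, and Pla2g2d, Hpgd and Pla2g1b lie farthest to the left.

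Marker genes of myeloid subsets moved with these results. Ptprc and Itgam, which encode the sorted proteins CD45 and CD11b, and the general macrophage genes Csf1r, Lyz2, Cd68 and Adgre1 were all present. Ptprc (log2 fold change 0.71, edgeR adjusted p = 0.00725) and Itgam (0.79, edgeR adjusted p = 0.00618) were higher in every WGP library, but below the fold that a call required. Without Lyz2, the gene that was called higher, this list summed to 4394 to 7152 CPM in PBS and 5999 to 6213 CPM in WGP libraries, which overlapped. All 7 resident macrophage markers (Lyve1, Folr2, Timd4, Cd163, Mrc1, Cbr2 and Vsig4) were called lower, from a summed 3601 to 9502 CPM to 500.1 to 718 CPM, and without their most abundant gene, Mrc1, from 2248 to 6087 CPM to 165 to 348 CPM. This was the same direction as that of Ptgs1, Alox5, Ltc4s, Hpgds, Hpgd and Pla2g2d. Within the PBS group, PBS replicate 1 was the lowest in this sum and in each of these genes, and it was also the lowest in the Ly6C-high monocyte sum and in Ptgs2, Ptges, Pla2g4a, Pla2g7 and Alox5ap. Of 8 Ly6C-high monocyte markers, 4 were called higher (Ccr2, Ly6c2, Plac8 and Vcan) and F13a1 was called lower, and the list summed to 2995 to 6466 CPM in PBS and 6533 to 8195 CPM in WGP libraries. Without Fn1, which was not called, it summed to 2482 to 4173 CPM in PBS and 3503 to 3983 CPM in WGP libraries, which overlapped. Without F13a1, the gene called lower, it summed to 1659 to 2992 CPM in PBS and 6030 to 7848 CPM in WGP libraries, which did not overlap. Without both Fn1 and F13a1 it summed to 699 to 1147 CPM in PBS and 3157 to 3561 CPM in WGP libraries, again without overlap. The part of these subsets in the changes of the 10 genes was not tested.

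Mast cells and basophils are known sources of Hpgds, Ltc4s and Alox5. Of their 10 markers Cpa3, Mcpt4 and Tpsab1 had no count in any library, and 7 were tested. Kit, which other progenitor cells also express, was the only one called, and it was higher. With the Y-linked factor, Kit was no longer called (edgeR adjusted p = 0.0511) and Mcpt8, a basophil protease gene, was called lower (edgeR adjusted p = 0.0395). The other 6 had log2 fold changes below 0, the direction of Hpgds, Ltc4s and Alox5, at low levels. Without Kit the list summed to 15.6, 8.86 and 1.71 CPM in PBS libraries and to 2.04, 0.24 and 0 CPM in WGP libraries, and the groups overlapped. Gata2 measured 1.82, 2.82 and 1.00 CPM in PBS and 0.62, 0.24 and 0 CPM in WGP libraries and did not pass the test. Tpsb2, Ms4a2 and Fcer1a had counts in PBS replicate 1 alone, and the basophil protease Mcpt8 measured 10.3, 0.87 and 0 CPM in the PBS libraries and had no count in WGP libraries. Cma1 measured 0.39, 5.16 and 0.71 CPM in PBS and 1.41, 0 and 0 CPM in WGP libraries. The markers thus did not share 1 order among the PBS libraries, and the part of these cells in the falls was not tested. Of 7 platelet markers Gp1ba and Gp9 were at 0 in all libraries, and Pf4, which macrophages also express, was called lower, from 364 ± 95.9 to 13.1 ± 3.06 CPM. Pf4 made up most of the summed platelet level, and without it the list summed to 3.15 to 3.72 CPM in PBS and 3.18 to 9.41 CPM in WGP libraries, and the groups overlapped. Among the markers that did not pass the test, Ppbp had 43, 98 and 83 counts in PBS and 10, 0 and 0 counts in WGP libraries, the direction of Pf4, whereas Itga2b and Gp6 had log2 fold changes of 0.26 and 3.07 and Treml1 had no count in PBS libraries. Eosinophil markers, 7 in number, summed to 51.7 to 68.0 CPM in PBS and 29.1 to 77.2 CPM in WGP libraries. Of these, 2 had log2 fold changes above 0 (Ccr3 and Siglecf) and 5 below 0. Ccr3 measured 5.10, 5.98 and 2.44 CPM in PBS and 32.1, 9.48 and 6.72 CPM in WGP libraries. It was called higher in DESeq2 (adjusted p = 0.0340) but not in edgeR (adjusted p = 0.0779) or limma-voom (adjusted p = 0.223). Ear2, whose values overlapped between the groups, was called lower (edgeR adjusted p = 0.0487). Ear2 lost this call in limma-voom (adjusted p = 0.0653) and in edgeR with the Y-linked factor (adjusted p = 0.619). None of the 9 neutrophil markers was called by edgeR, DESeq2 or limma-voom, although 5 had an unadjusted p under 0.05 in edgeR and 7 were called lower with the Y-linked factor. Of the 5 markers, Csf3r was higher in every WGP library, but below the fold threshold (log2 fold change 0.81, edgeR adjusted p = 0.00925). It was the only neutrophil marker to pass the adjusted p in edgeR, and the other 8 had log2 fold changes below 0. The neutrophil sum, 1740 to 6054 CPM in PBS and 2306 to 2612 CPM in WGP libraries, overlapped between the groups. Of 6 dendritic cell markers Cd209a was called lower. In this list 2 log2 fold changes were above 0 and 4 below, and Clec9a was higher in all WGP libraries (1.28, edgeR adjusted p = 0.0632). Of 6 lymphocyte markers, the B cell genes Cd79a and Ms4a1 were called lower. In this list 2 log2 fold changes were above 0 and 4 below. The T cell genes Cd3e (3.88, edgeR adjusted p = 0.179) and Cd3d (2.41, edgeR adjusted p = 0.478) were above 0 at low levels. DESeq2 called 1 marker of each list higher. The dendritic cell and lymphocyte sums were 148 to 194 CPM and 203 to 1409 CPM in PBS, and 67.5 to 129.96 CPM and 54.4 to 100.1 CPM in WGP libraries. Without Cd209a the dendritic cell sums overlapped, at 65.1 to 73.6 CPM and 36.6 to 78.4 CPM.

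**Figure D5:**
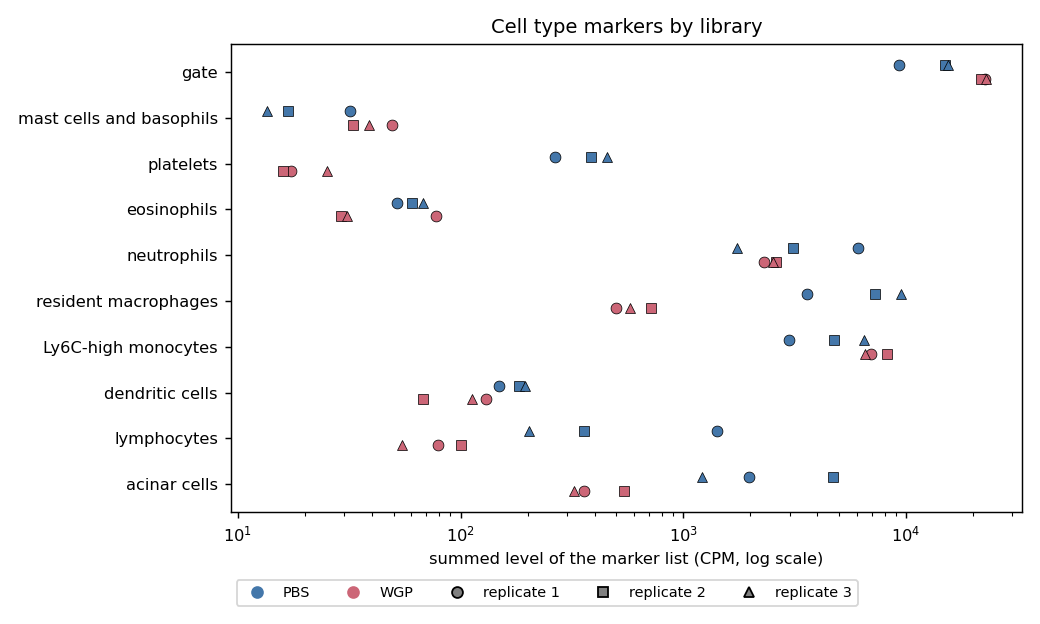
Summed level (CPM, log scale) of each cell type marker list in every library, with PBS in blue, WGP in red and 1 symbol per replicate. Resident macrophage, lymphocyte and acinar sums lie lower in all WGP libraries. The Ly6C-high monocyte, gate and mast cell sums lie higher in all WGP libraries, and the platelet and dendritic cell sums lower. The gate, platelet, dendritic cell and mast cell sums overlap without Lyz2, Pf4, Cd209a and Kit, respectively. The monocyte sums overlap without Fn1, but not without F13a1 or without both Fn1 and F13a1.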

How the data were processed

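RNA from sorted CD45+CD11b+ pancreatic cells (10 ng per library) was prepared as polyA libraries and sequenced as single-end reads of 75 bases. The authors aligned the reads with STAR 2.6 to mm10 (GRCm38.p6), counted them per Ensembl gene with HTSeq 0.10.0 and deposited the raw counts without normalization. The annotation release, strand setting and handling of duplicate reads are not given in the sources used here, so overlapping and antisense genes could not be told apart.

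Symbols, positions and exon lengths came from GENCODE vM21; 26 of 21780 rows had no entry. Groups came from the sample titles. Genes annotated as protein-coding whose RLE-normalized counts added up to 10 or more across the libraries were tested in edgeR 4.0.16 (R 4.3.3) by the quasi-likelihood test after TMM normalization, with no covariate and Benjamini-Hochberg adjustment over all 14429 genes. The SE is the log2 fold change over the signed root of F. The script was tested on simulated data. Ratios within a library were compared by exact permutation. Named were all 10 genes, every called gene of each pathway list, and, in lists without a call, the most abundant gene; Cysltr1, Ptger4, Akr1b3, Abcc4, Ptgis, Pla2g3, Ptgds, Ptgdr, Ptgdr2 and single markers were chosen after seeing their values. One further marker gene was left out of the lists and is not reported here. The 10 genes, the gene lists and the tests were chosen with earlier results of these data known, and the motifs with the sequences in view. Promoters were copied from RefSeq (GRCm38.p6), in which 9 of the 10 genes matched.

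Alternatives were RLE, upper-quartile and library-total scaling, DESeq2 1.42.0, limma-voom (limma 3.58.1), other filters, all rows, the replicate number as a block, Y-linked counts as a factor, each library left out and other thresholds, and, added after seeing the data, counts divided by the most frequent low count of each library (17 to 43). Counting precision is limited by total counts of 35334645 to 43341834 per library. Near the most frequent low count, the number of molecules may limit it further. Floors cover counting error of reads only.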

Additional observations from a re-analysis of the deposited data

How the results depend on the processing

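Each of the 10 genes was recomputed under 17 alternatives, and no direction reversed. Of the 8 called genes, 7 were called in all 17, and Ptges in 16, the exception being limma-voom (4.05, adjusted p = 0.0525; over all its alternatives adjusted p ran from 3.70e-15 to 0.0525). The number called higher was 4, with 3 in limma-voom and 3 when a log2 fold change of 2 in size was required, and the number called lower was 4, with 3 at that stricter threshold. Alox5ap (0.04 to 0.33) and Lta4h (−0.43 to −0.07) were called in none. The Y-linked factor gave the value farthest from the reported one for every gene but Ptgs2 and Ptges, and moved Pla2g7 (2.81 against 2.15) and Ltc4s (−1.55 against −2.14) most. It cannot be told apart from the other properties of PBS replicate 1. Same-numbered libraries deviated from their group means with correlations of 0.003, −0.04 and 0.01, so the numbers were not taken to pair the samples. The fit with the replicate number as a block gave 3.00 for Ptgs2 and 4.03 for Ptges and changed no call among the 10 genes; of the pathway genes named, it ended the call of Alox15 (adjusted p = 0.0512 in edgeR). Without single libraries the ratio differences ranged from 4.30 to 4.59 (Ptgs2 over Ptgs1), 5.78 to 6.92 (Ptges over Hpgds) and 1.49 to 2.33 (Lta4h over Ltc4s). Low counts, with possibly few molecules behind them, limit Ptges in PBS libraries and the pathway genes at a few counts.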

Other observations

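By edgeR's adjusted p alone, 3 genes of the wider pathway passed with changes smaller than the fold threshold. Ptger4, the EP4 receptor for prostaglandin E2, measured 111.3, 133.1 and 115.7 CPM in PBS and 78.7, 76.4 and 67.8 CPM in WGP libraries (log2 fold change −0.69, edgeR adjusted p = 0.0100), opposite to Ptger2. Ptger4 remained the more abundant transcript in every library. Akr1b3, an aldose reductase that can make prostaglandin F2α, had a log2 fold change of −0.79 (edgeR adjusted p = 0.0219), and Abcc4, an exporter of prostaglandin E2, had one of 0.70 (edgeR adjusted p = 0.0198).

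Several genes of the pathway were seen in few libraries. Ptgis, the prostacyclin synthase of endothelial and stromal cells, had 0, 27 and 161 counts in PBS and 91, 1009 and 0 counts in WGP libraries, so that 1 library held most of them. Pla2g3, a secreted phospholipase A2, had no count in PBS libraries and 35, 48 and 77 counts in WGP libraries, where the most frequent low counts were 17, 33 and 30, and it was not called (edgeR adjusted p = 0.0886). Ptgds, the other prostaglandin D synthase, had 29 counts in PBS replicate 3 and none elsewhere. The prostaglandin D2 receptors Ptgdr and Ptgdr2 had no count in any library but WGP replicate 2, which had 10 counts of Ptgdr2.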
